A study of Mus musculus with 40 samples.

Results

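Elastic fibre components are 10 genes, Eln, Fbn1, Fbn2, Mfap4, Fbln1, Fbln2, Fbln5, Efemp2, Lox and Loxl1, chosen by name among the 21500 genes of the count table. All 10 were found there, and all 10 passed the filter on low counts, which left 13993 tested genes. The study sequenced RNA from the livers of 20 male mice of strain C57BL/6J, aged 20 weeks. Every mouse ate CDAA-HFD from 8 weeks of age, a feed built from amino acids that lacks choline, takes 60% of its energy from fat, holds 0.1% methionine and is used to induce fatty liver disease with scarring. After 4 weeks, 10 mice stayed on this diet alone (CDAA-HFD mice, numbered 31 to 40) and 10 were given the compound BLT1i in addition, 90 mg/kg over 8 weeks (BLT1i mice, numbers 71 to 80). No mice on normal chow were analysed here, so the levels below are those of an injured liver with and without the compound. The study asked what inhibition of BLT1, the name in general use for a receptor of leukotriene B4, does in this fibrosis model.

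An elastic fibre has a core of crosslinked elastin, laid down on a scaffold of fibrillin microfibrils. Fibulins bring elastin and its crosslinking enzymes to the microfibrils, and lysyl oxidases then join elastin chains, as they also join collagen chains. In the liver, elastic fibres surround portal tracts and vessels, and in scarring they accumulate in the fibrous septa, where portal fibroblasts, activated stellate cells and vessel wall cells are known sources. In bulk liver RNA, fewer cells of a type and less RNA per cell cannot be told apart.

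Total counts per mouse were 20994073 to 27456678 in the CDAA-HFD mice and 18467060 to 26078285 in the BLT1i mice. Albumin (Alb), the main secreted protein of hepatocytes, was at 36424 ± 1928 CPM (counts scaled to the library's size by the TMM method; mean ± SD, n = 10) in the CDAA-HFD mice. Of 12 immediate early genes, which respond to stress and tissue handling within minutes, 9 were higher in the BLT1i mice, and their summed level was 689 to 1370 CPM in the CDAA-HFD mice and 1387 to 2378 in the BLT1i mice. Mouse numbers, and an unexplained number in the sample titles, run in a separate block for each group, so an effect of order cannot be told apart from treatment.

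With BLT1i, 3 of the 10 genes fell: elastin (Eln), the elastin-assembly fibulin Fbln5 and the crosslinking enzyme Lox, by 17.6%, 13.1% and 16.1%. None rose. The fitted change was negative for all 10 members, with a median of -0.18 on the log2 scale, whereas 54.0% of all tested genes had a negative change and their median was -0.01. This direction was not particular to the members: it was also negative for all 8 scar collagens listed below, with a median of -0.15. The members varied together across mice, so their 10 changes are not 10 separate observations. Among all tested genes 1.98% were called lower and 3.65% higher (edgeR, quasi-likelihood F-test, with a threshold of 0.05 on p values adjusted by Benjamini-Hochberg over 13993 genes). At an unadjusted p under 0.05 the count was 7 of 10 members, against 19.7% of all tested genes. With the immediate early genes as a covariate, 0 of 10 members passed, against 17 genes lower and 76 higher among all genes. In that fit the members' median log2 change was -0.25 with a median SE of 0.12, compared with a median SE of 0.07 without the covariate. The covariate, a score for each mouse, nearly separated the groups. Its highest value without BLT1i was 6.34, and its lowest value with BLT1i was 6.17. The fit therefore cannot tell these genes apart from treatment, and no conclusion is drawn from calls lost in it, here or below.

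**Figure D1:**
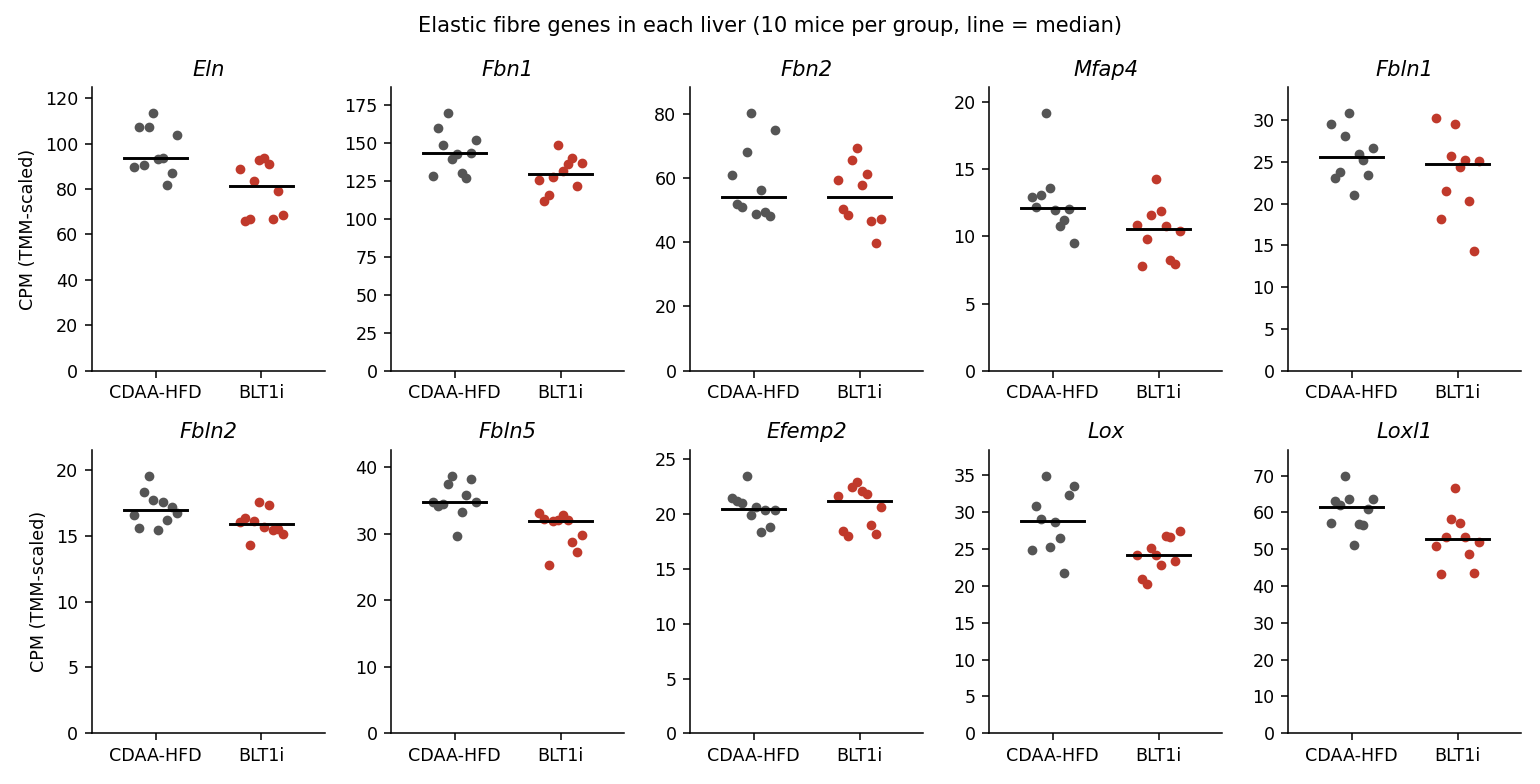
CPM (TMM-scaled, vertical axis from 0) of each of the 10 genes in each liver, with 1 point per mouse, CDAA-HFD mice in grey, BLT1i mice in red and a line at the median of 10 mice. In the panel of Fbln5, 9 of 10 CDAA-HFD mice lie above the highest BLT1i mouse, whereas the mice of both groups interleave in the Efemp2 panel.

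Per unit of gene length, elastin was the most abundant of the 10. The authors' FPKM values, rounded to whole numbers, averaged 23.8 ± 3.12 for Eln in the CDAA-HFD mice (SD, n = 10). Its lowest CDAA-HFD mouse, at 20, was above the highest value of the next gene, Loxl1, at 18. Loxl1 averaged 15.6 ± 1.51 and Fbn1 13.5 ± 1.43 on this scale, and their ranges overlapped. Fbln5 at 11.1 ± 0.994 and Efemp2 at 10.8 ± 0.919 did not differ beyond their spread, nor did Fbln1 at 7.5 ± 1.27, Fbn2 at 6.1 ± 1.85 and Mfap4 at 6.0 ± 1.25. Lox at 4.8 ± 0.789 and Fbln2 at 3.1 ± 0.568 were the least abundant. The main scar collagen gene Col1a1 averaged 123.2 ± 15.6 on the same scale.

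Eln (ENSMUSG00000029675) encodes tropoelastin, the monomer of the elastic core. Its lowest, median and highest CPM were 81.7, 93.5 and 113 in the CDAA-HFD mice and 66.0, 81.4 and 93.7 in the BLT1i mice. The groups overlapped: 5 BLT1i mice were below every CDAA-HFD mouse, 5 CDAA-HFD mice were above every BLT1i mouse, and 9 of 10 BLT1i mice were below the CDAA-HFD median. The mean fell from 96.7 ± 10.4 to 79.7 ± 11.7 CPM, a log2 change of -0.28 ± 0.08 (SE; edgeR adjusted p = 0.0331). The call was lost when any of mice 32, 34, 35, 40, 72, 73, 78, 79 or 80 was left out, with an adjusted p of up to 0.0643, and the change stayed between -0.31 and -0.25.

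The microfibril genes did not pass the test. Fbn1 encodes fibrillin 1, the main microfibril protein of adult tissue, and had the highest CPM of the members, which is a count not corrected for its long transcript. Its lowest, median and highest values were 127, 143 and 169 CPM in the CDAA-HFD mice and 111, 129 and 149 in the BLT1i mice. The groups overlapped, with 4 BLT1i mice below every CDAA-HFD mouse, and the log2 change was -0.15 ± 0.06 (edgeR adjusted p = 0.106). Fbn2, the fibrillin known from development and repair, ranged widely in both groups, from 48.0 to 80.2 CPM without the compound and from 39.6 to 69.3 with it, with medians of 54.0 and 53.9. Its log2 change was -0.11 ± 0.11 (edgeR adjusted p = 0.650), and the 95% confidence interval of -0.35 to 0.12 includes falls as large as that of Eln. The change was -0.05 without mouse 35, -0.07 without mouse 40 or mouse 79, and -0.39 with the immediate early covariate (edgeR adjusted p = 0.393). Mfap4, a microfibril-associated protein that binds elastin and fibrillin, had the largest fitted change, -0.29 ± 0.11 on the log2 scale, and also a wide spread, so it did not pass (edgeR adjusted p = 0.154). Its lowest, median and highest CPM were 9.55, 12.1 and 19.2 in the CDAA-HFD mice and 7.79, 10.6 and 14.3 in the BLT1i mice. Mouse 34 alone accounts for the top of that range, since the next CDAA-HFD mouse was at 13.6.

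Of the fibulin genes, Fbln5 passed the test. Fbln5 (ENSMUSG00000021186) encodes fibulin 5, which tethers elastin to microfibrils and cells and without which mice have disorganised elastic fibres. Its lowest, median and highest CPM were 29.7, 34.8 and 38.7 in the CDAA-HFD mice and 25.3, 31.9 and 33.2 in the BLT1i mice. All 10 BLT1i mice were below the CDAA-HFD median and 9 of 10 CDAA-HFD mice were above the highest BLT1i mouse. The mean fell from 35.1 ± 2.63 to 30.5 ± 2.66 CPM, a log2 change of -0.20 ± 0.05 (edgeR adjusted p = 0.0202). Fbln5 passed in each of the 20 fits that left out 1 mouse, with adjusted p values from 0.00582 to 0.0490. With the immediate early covariate its log2 change was -0.28 and the adjusted p was 0.188. Efemp2 encodes fibulin 4, which recruits lysyl oxidase to elastin, and its group means differed by less than the spread between mice. Its lowest, median and highest CPM were 18.4, 20.5 and 23.5 in the CDAA-HFD mice and 18.0, 21.2 and 22.9 in the BLT1i mice. The log2 change was -0.00 ± 0.05 (edgeR adjusted p = 0.985), with a 95% confidence interval of -0.11 to 0.11. Because that interval is narrow, a fall as large as the fitted one of Fbln5 lies outside it. Whether Efemp2 and Fbln5 differ in their change was not tested.

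Fbln1 encodes a fibulin of basement membranes and elastic fibres, and Fbln2 a fibulin of vessel walls. Fbln1 ranged from 21.1 to 30.9 CPM without the compound and from 14.3 to 30.3 with it, with medians of 25.6 and 24.7. Fbln2 ranged from 15.4 to 19.6 CPM and from 14.3 to 17.6, with medians of 16.9 and 15.9. Both pairs of ranges overlapped for most mice, and neither gene passed: the log2 change was -0.14 ± 0.11 for Fbln1 (edgeR adjusted p = 0.537) and -0.10 ± 0.05 for Fbln2 (edgeR adjusted p = 0.244). Without mouse 79 the change of Fbln1 was -0.07, and on the rounded FPKM that of Fbln2 was -0.19 to -0.25.

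Start site sequences are shown for Fbln5, the called gene with a window among the RefSeq promoter windows used here. They are also shown for Efemp2, whose group means differed by less than the spread between mice, and for Fbn1, which followed Col1a1 across mice. The windows run from 250 bases before to 50 bases after an annotated start, 5′ to 3′ on the gene's strand, in build GRCm38.p6. The counts were made on another build, so the windows serve only to show the sequence of these promoters. Capitals mark GC boxes, GGGCGG on either strand, with overlapping matches counted.
Fbln5 (chr12:101819070-101819369, minus strand): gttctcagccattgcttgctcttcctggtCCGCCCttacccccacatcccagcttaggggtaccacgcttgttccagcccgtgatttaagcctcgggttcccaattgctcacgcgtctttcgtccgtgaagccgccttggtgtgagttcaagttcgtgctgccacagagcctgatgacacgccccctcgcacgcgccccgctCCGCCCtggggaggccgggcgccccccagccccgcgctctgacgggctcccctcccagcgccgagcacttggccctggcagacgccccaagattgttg
Efemp2 (chr19:5474485-5474784, plus strand): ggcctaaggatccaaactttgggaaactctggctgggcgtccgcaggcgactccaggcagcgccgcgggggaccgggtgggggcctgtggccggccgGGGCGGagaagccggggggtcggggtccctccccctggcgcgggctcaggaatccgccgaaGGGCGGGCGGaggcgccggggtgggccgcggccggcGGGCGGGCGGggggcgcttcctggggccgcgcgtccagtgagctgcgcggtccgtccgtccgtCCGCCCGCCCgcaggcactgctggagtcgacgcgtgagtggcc
Fbn1 (chr2:125506389-125506688, minus strand): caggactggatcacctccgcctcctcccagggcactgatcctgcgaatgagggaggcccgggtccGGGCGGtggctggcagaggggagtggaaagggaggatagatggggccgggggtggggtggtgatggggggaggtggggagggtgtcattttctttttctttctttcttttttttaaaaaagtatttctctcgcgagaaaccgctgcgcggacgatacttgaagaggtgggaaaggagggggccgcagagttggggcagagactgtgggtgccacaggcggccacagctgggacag
The Fbln5 window held 2 GC boxes and 65.7% G and C, the printed Efemp2 window 7 and 78.3%, and the Fbn1 window 1 and 60.3%. At other annotated starts, a further Fbln5 window held 0, and the other Efemp2 windows held 2 and 5. Across 32851 mouse windows of this length, 35.7% held a GC box. The TATA box TATAAA (13.6% of all windows), the AP-1 site TGANTCA (7.81%) and the TEAD site GGAATG (14.7%) were searched on both strands too. None of these letters occurred in any of the 9 windows of Fbn1, Fbln1, Fbln2, Fbln5 and Efemp2.

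Of the crosslinking enzymes, Lox (ENSMUSG00000024529) encodes lysyl oxidase, which oxidises lysines of both elastin and collagen. Its lowest, median and highest CPM were 21.8, 28.9 and 34.97 in the CDAA-HFD mice and 20.3, 24.2 and 27.4 in the BLT1i mice. All 10 BLT1i mice were below the CDAA-HFD median, and 6 CDAA-HFD mice were above every BLT1i mouse. The mean fell from 28.8 ± 4.20 to 24.2 ± 2.41 CPM, a log2 change of -0.25 ± 0.08 (edgeR adjusted p = 0.0475). This call was close to the threshold: it was lost without any of mice 32, 33, 34, 36, 39, 40, 71, 72, 73, 74, 75, 76 or 79, with an adjusted p of up to 0.0917, and also without the filter on low counts and in the limma fits of counts and of rounded FPKM. Loxl1, the family member that maintains elastic fibres in adult mice, ranged from 51.0 to 70.0 CPM without the compound and from 43.3 to 66.6 with it, with medians of 61.5 and 52.7. Of the BLT1i mice 9 of 10 were below the CDAA-HFD median, and 1 CDAA-HFD mouse was above every BLT1i mouse. Its log2 change was -0.20 ± 0.07 and did not pass (edgeR adjusted p = 0.0791), but it passed when mouse 36 or mouse 75 was left out. With the immediate early covariate its change was -0.32 (edgeR adjusted p = 0.234).

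**Figure D2:**
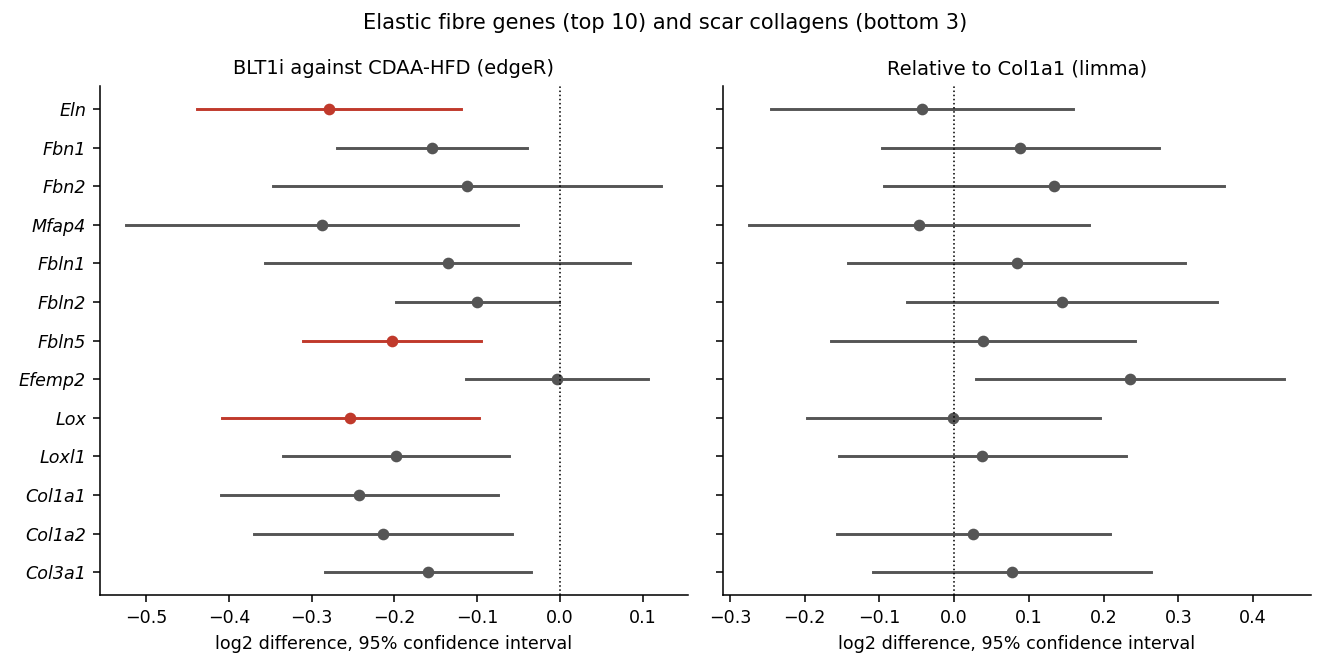
Difference of BLT1i from CDAA-HFD mice on the log2 scale (horizontal axes) for the 10 elastic fibre genes and 3 scar collagen genes, from edgeR on the left and relative to Col1a1 from limma on the right, with points at the estimate, lines for the 95% confidence interval, and red for an adjusted p of at most 0.05. On the left Eln, Fbln5 and Lox are red; on the right none is, and Efemp2 lies highest at 0.24.

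The fibrillar collagens of the scar did not pass the test. Col1a1 was at 832 ± 114 CPM in the CDAA-HFD mice and 704 ± 97.7 in the BLT1i mice, a log2 change of -0.24 ± 0.08 (edgeR adjusted p = 0.0808). Col1a2 had a log2 change of -0.21 ± 0.08 (edgeR adjusted p = 0.101) and Col3a1 one of -0.16 ± 0.06 (edgeR adjusted p = 0.128). To ask whether an elastic fibre gene moved apart from Col1a1 in the same livers, log2 CPM of each gene was taken relative to that of Col1a1 and tested with limma. Of the members 0 of 10 were called in this fit, with a median difference of 0.06 on the log2 scale. For all 13992 genes the median was 0.23, and 36.1% were called higher and 0.179% lower than Col1a1. Because Col1a1 was subtracted from every gene, a gene without change sits at the Col1a1 change with its sign turned. These shares therefore largely restate the change of Col1a1, which did not pass, and are no separate background for the members. At an unadjusted p under 0.05 the count was 1 of 10 members, against 7760 of the 13992 genes, a number set by the reference in the same way. That gene was Efemp2, at 0.24 ± 0.10 (SE, limma adjusted p = 0.0603), and it passed without mouse 31, 36, 38, 75, 78 or 80, with adjusted p values from 0.0260 to 0.0442. Eln relative to Col1a1 differed by -0.04 ± 0.10, Fbln5 by 0.04 ± 0.10 and Lox by -0.00 ± 0.10 on the log2 scale. Their 95% confidence intervals were -0.25 to 0.16 for Eln, -0.16 to 0.24 for Fbln5 and -0.20 to 0.19 for Lox. These leave room for differences of nearly the size of the changes themselves, and for Fbln5 for a larger one.

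Across mice the elastic fibre genes varied together. After each group's mean was subtracted, 24 of the 45 pairs of members (53.3%) had a Pearson r of at least 0.5 over 20 mice, compared with 5.13% of all pairs of a member with a tested gene. No pair of members had a negative r. The median r was 0.52 between members and -0.01 between a member and a tested gene. Whether other sets of matrix genes vary together as much was not tested, and the genes nearest each member, given below, were not members. Of the 45 pairs 17 had an adjusted p of at most 0.05 (permutation within groups, 100000 resamples, two-sided, adjusted over the 105 relations computed). In the CDAA-HFD mice alone 17 pairs had an r of at least 0.5, in the BLT1i mice alone 28 had, and 11 had it in both. The same mice stood at the ends for several genes: mouse 34 was the highest CDAA-HFD mouse for 6 of 10 members and mouse 75 the highest BLT1i mouse for 6 of 10, while mice 72 and 73 were each the lowest BLT1i mouse for 4. Without mouse 75 the number of pairs was 18 and without mouse 34 it was 20.

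**Figure D3:**
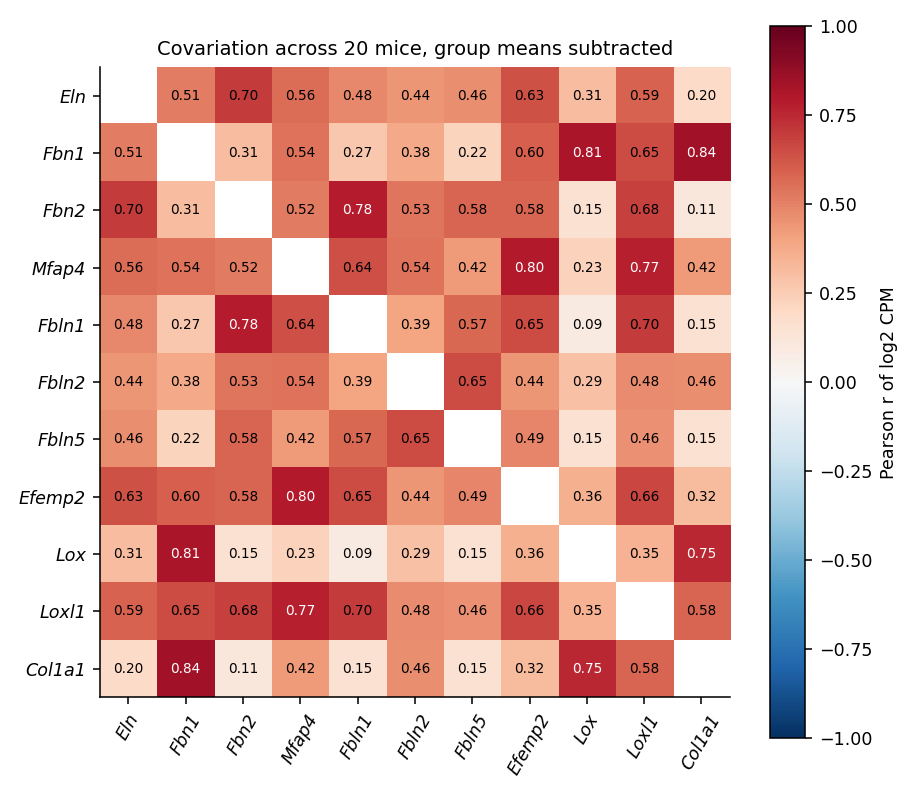
Pearson r of log2 CPM over 20 mice with group means subtracted, for each pair of the 10 members and Col1a1 (rows and columns), coloured from -1 (blue) to 1 (red). The row of Lox is pale apart from Fbn1 (0.81) and Col1a1 (0.75), and no pair of members is below 0.

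The pairs described next were picked out after their values were seen, and they are not a ranking by r. They are mainly those of Lox and Fbn1 with Col1a1 and those among Fbn2, Fbln1, Mfap4, Efemp2 and Loxl1. Other pairs also passed, among them Fbln2 with Fbln5 (r = 0.650, permutation adjusted p = 0.0217) and Eln with Efemp2 (r = 0.634, permutation adjusted p = 0.0433). Lox followed Fbn1 (r = 0.813, rho = 0.817, permutation p = 5e-05 for each, adjusted p = 0.00175 for r and 0.0021 for rho), and r was 0.852 without the 2 mice farthest from the median of Fbn1. Both followed Col1a1. For Fbn1 and Col1a1 r was 0.839 and rho 0.881 (permutation p = 2e-05 and 1e-05, the latter the smallest these resamples can give; adjusted p = 0.00158 and 0.00105). For Lox and Col1a1 r was 0.752 and rho 0.735 (permutation p = 0.00027 and 0.00047, adjusted p = 0.00473 and 0.00705). Without the 2 mice farthest from the median of Col1a1 these values of r were 0.757 and 0.784. With the other members the r of Lox ran from 0.086 for Fbln1, 0.151 for Fbn2 and 0.153 for Fbln5 to 0.351 for Loxl1 and 0.355 for Efemp2, so that Fbn1 was the 1 member of 9 that reached 0.5 with it. In the CDAA-HFD mice alone Lox and Loxl1 had an r of 0.558. Fbn1 also went with Loxl1 (r = 0.650, rho = 0.585, permutation p = 0.00215 and 0.00962, adjusted p = 0.0214 and 0.0532) and Efemp2 (r = 0.602, rho = 0.538, permutation p = 0.00583 and 0.0176, adjusted p = 0.036 and 0.0691), and its r was 0.541 with Mfap4 and 0.515 with Eln. Without the 2 mice farthest from the median of Fbn1, r was 0.467 with Loxl1, 0.423 with Efemp2 and 0.204 with Mfap4, so the relation with Mfap4 rests on those mice. For Fbn1 and Eln the 2 mice left out were those farthest from the median of Eln, and r was 0.586.

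Among Fbn2, Fbln1, Mfap4, Efemp2 and Loxl1 every pair had an r of at least 0.5. The lowest, Fbn2 with Mfap4 at 0.520, did not pass (permutation adjusted p = 0.0747). In the BLT1i mice alone the r of these pairs ran from 0.780 to 0.956, and in the CDAA-HFD mice alone from 0.183 (Fbln1 with Efemp2), 0.201 (Fbn2 with Mfap4), 0.227 (Fbn2 with Efemp2) and 0.304 (Fbln1 with Mfap4) up to 0.820. For Fbn2 and Fbln1 r was 0.783 and rho 0.773 (permutation p = 3e-05 and 6e-05, adjusted p = 0.00158 and 0.0021), with an r of 0.820 in the CDAA-HFD mice alone and 0.835 in the BLT1i mice alone. Efemp2 and Mfap4 had an r of 0.796 and a rho of 0.815 (permutation p = 0.00017 and 0.00011, adjusted p = 0.00357 and 0.00289). Mfap4 and Loxl1 had an r of 0.774 and a rho of 0.774 (permutation p = 0.00014 and 0.00018, adjusted p = 0.00357 and 0.00378), with 0.516 in the CDAA-HFD mice and 0.956 in the BLT1i mice. The difference between the groups in these values was not tested. Without the 2 mice farthest from the median of the first gene, r in these 3 pairs was 0.816, 0.811 and 0.641. Eln went with Fbn2 (r = 0.698, rho = 0.635, permutation p = 0.001 and 0.00255, adjusted p = 0.015 and 0.0256), and its r with Col1a1 was 0.195 (rho = 0.214, adjusted p = 0.611 for r). Loxl1 also had an r of 0.579 with Col1a1 (rho = 0.496, permutation p = 0.00869 and 0.0314, adjusted p = 0.0435 and 0.0998), but this relation rests on the 2 mice farthest from the median of Col1a1, since r was 0.350 without them.

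**Figure D4:**
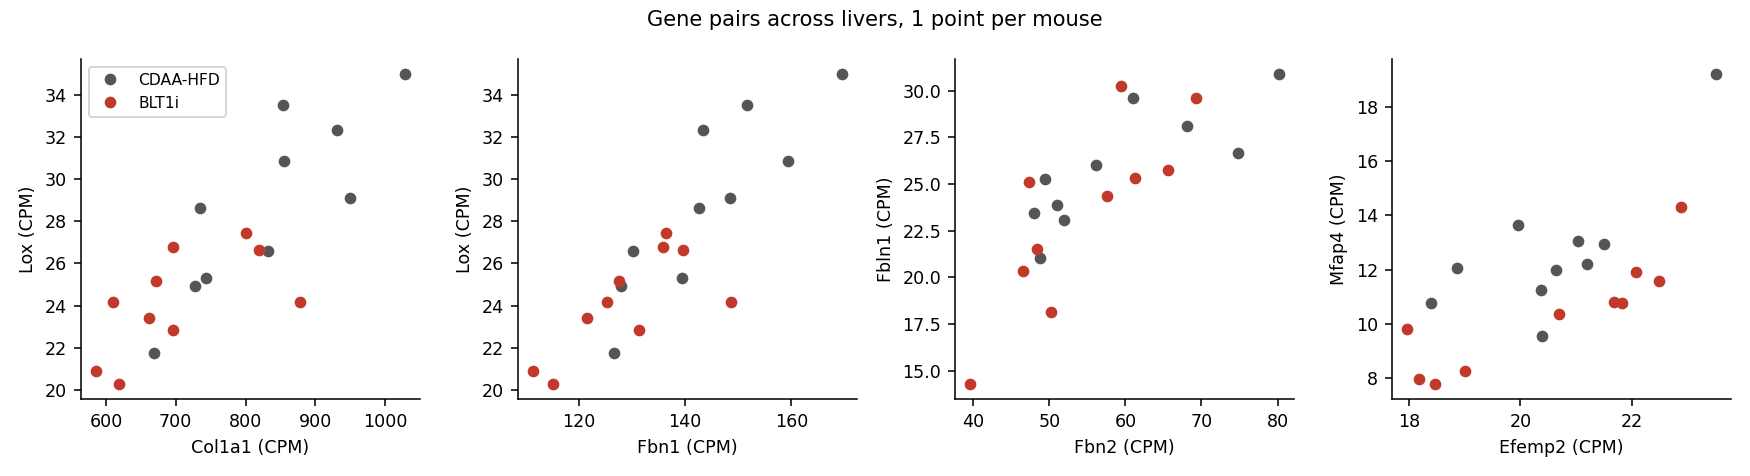
CPM of 4 gene pairs with 1 point per mouse (CDAA-HFD grey, BLT1i red; 10 mice each): Lox against Col1a1 and against Fbn1, Fbln1 against Fbn2, and Mfap4 against Efemp2; the axes do not start at 0. Points rise together within each group in all 4 panels, and the single CDAA-HFD mouse at the top right of the Mfap4 panel is mouse 34.

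The members were also set against markers of portal fibroblasts, quiescent stellate cells and vascular smooth muscle. Activated stellate cells, named above as a source, had no marker list of their own here. Whether they contribute to the smooth muscle list, which holds Acta2 and Tagln, was not tested. Differences between the members' r values were not tested. Each marker had equal weight in its list's mean. The portal fibroblast mean thus includes Gli1, at 0.62 CPM in each group, and Clec3b, at 0.53 CPM in the CDAA-HFD mice and 0.57 in the BLT1i mice. The mean log2 CPM of 10 portal fibroblast markers went with Fbln1 (r = 0.687, rho = 0.680, permutation p = 0.0033 and 0.00268, adjusted p = 0.0224 and 0.0256) and with Mfap4 (r = 0.637, rho = 0.695, permutation p = 0.0033 and 0.00182, adjusted p = 0.0224 and 0.0212), and without the 2 mice farthest from the markers' median r was 0.518 and 0.621. For Fbn2 it was 0.575, with 0.119 in the CDAA-HFD mice alone, 0.898 in the BLT1i mice alone and 0.435 without the 2 farthest mice. For Lox it was -0.281, with -0.685 in the CDAA-HFD mice alone, 0.0098 in the BLT1i mice alone and -0.521 without the 2 farthest mice. For Fbn1 it was 0.021, with -0.455 and 0.322 in the groups alone. The 10 markers of quiescent stellate cells went with Eln (r = 0.615, rho = 0.663, permutation p = 0.00913 and 0.0057, adjusted p = 0.0436 and 0.0352; 0.535 without the 2 farthest mice), with 0.244 in the CDAA-HFD mice alone and 0.814 in the BLT1i mice alone. No member reached an r of 0.5 with the 8 vascular smooth muscle markers, the immediate early genes or the total count of the mouse, where r ran from -0.301 to 0.372.

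Between the groups, the summed CPM of the portal fibroblast markers was 369 to 507 in the CDAA-HFD mice and 327 to 486 in the BLT1i mice, and 1 of 10 markers was higher with 0 lower. That marker was Entpd2, an ectonucleotidase of portal fibroblasts, with a 1.28-fold higher level (edgeR adjusted p = 0.000348). The fitted change was negative for 6 of 10 portal fibroblast markers, near the 54.0% of all tested genes. The list's median log2 change was -0.05. In the quiescent stellate cell list it was negative for 2 of 10, with a median of 0.05, and in the smooth muscle list for 3 of 8, with a median of 0.13. The quiescent stellate cell markers summed to 1030 to 1220 and 1056 to 1190 CPM, and 1 of 10 was higher (Vipr1, a receptor for vasoactive intestinal peptide, 1.25-fold, edgeR adjusted p = 0.00604). The smooth muscle markers summed to 361 to 432 and 350 to 438 CPM, and 1 of 8 was higher (Tagln, transgelin, 1.18-fold, edgeR adjusted p = 0.0133). With the immediate early covariate, which nearly separated the groups, these calls were lost, with adjusted p values of 0.249 for Entpd2, 0.173 for Vipr1 and 0.293 for Tagln. No marker of these 3 lists was at 0 in all mice, although Gli1 and Clec3b averaged under 1 CPM in both groups, and the lists' part in the fall of Eln, Fbln5 and Lox was not tested. Of the other cell markers, 0 of 6 mesothelial, 0 of 6 cholangiocyte and 0 of 5 neutrophil genes passed. In the hepatocyte list Cyp2e1 was 1.29-fold higher and Serpina1c lower at 0.835-fold (a call lost without mouse 33), 2 of 7 endothelial genes were higher (Clec4g and Kdr), and 1 of 6 macrophage genes was lower (Fcer1g), a call lost without mouse 31, 33, 34, 36, 39, 71, 72, 73, 76, 77, 78 or 79. With the immediate early covariate none of these 5 genes passed, and Serpina1c had a log2 change of -0.08 (adjusted p = 0.843) in place of -0.26.

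Genes that work beside the 10 members mostly did not pass. Of 13 tested partners of elastic fibres and microfibrils, 1 was lower and 0 higher, with a median log2 change of -0.10. It was Ltbp3, a latent TGF-beta binding protein, at 75.02 ± 4.67 CPM in the CDAA-HFD mice and 66.9 ± 6.28 in the BLT1i mice (log2 change -0.17 ± 0.05, edgeR adjusted p = 0.0455), and the call was lost without mouse 33, 34, 35, 39, 40, 71, 72, 73, 78, 79 or 80. Of 10 genes of the lysyl oxidase family and its processing and copper supply, 0 passed in either direction. The lowest p values were those of Pcolce, an enhancer of procollagen processing (log2 change -0.14 ± 0.04, edgeR adjusted p = 0.0606), and Atp7a, the copper pump that loads lysyl oxidases (-0.13 ± 0.04, edgeR adjusted p = 0.0812). None of 8 ADAMTS-like microfibril genes passed; Adamtsl2 had a log2 change of -0.17 ± 0.06 (edgeR adjusted p = 0.119) and Adamtsl4 one of 0.15 ± 0.06 (edgeR adjusted p = 0.171).

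On the side of breakdown, 0 of 9 tested proteases that can degrade elastin passed. Cathepsin S (Ctss) had a log2 change of -0.15 ± 0.06 (edgeR adjusted p = 0.170) and cathepsin B (Ctsb) one of -0.11 ± 0.05 (edgeR adjusted p = 0.203). Neutrophil elastase (Elane), cathepsin G (Ctsg) and proteinase 3 (Prtn3) were below the filter. Among 6 protease inhibitors 0 passed, with Timp1 at -0.27 ± 0.10 (edgeR adjusted p = 0.111) and Cst3 at -0.09 ± 0.05 (edgeR adjusted p = 0.392). Of 11 integrins and elastin receptor subunits 2 were lower: Itga5, the alpha chain of the fibronectin receptor, at a log2 change of -0.18 ± 0.05 (edgeR adjusted p = 0.0214; lost without mouse 33), and Itgb5, a partner of the alpha v chain, at -0.15 ± 0.04 (edgeR adjusted p = 0.0283; lost without mouse 31, 33, 34, 39, 76, 77 or 79). With the immediate early covariate Itga5 was at -0.10 (adjusted p = 0.692) and Itgb5 at -0.19 (adjusted p = 0.271), and Ltbp3 did not pass either (adjusted p = 0.259).

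Of 8 scar collagens 1 was lower, Col6a2, from 112 ± 13.8 to 94.6 ± 11.7 CPM (log2 change -0.25 ± 0.07, edgeR adjusted p = 0.0453), a call lost without mouse 31, 33, 34, 35, 36, 39, 71, 72, 73, 78 or 79 and with the immediate early covariate (adjusted p = 0.490). The fitted change was negative for all 8, with a median of -0.15 on the log2 scale, beside -0.18 for the 10 members.

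The 3 genes whose levels varied most like each member over the 20 mice, by the same group-centred r, are given as a description. For Mfap4 they were the collagen VI chains Col6a1 (0.905) and Col6a2 (0.886) and Dpysl2 (0.870). For Loxl1 they were Cpz (0.925), Mrc2 (0.904) and Tmem119 (0.865), and for Efemp2 Ltbp1 (0.885), Adamts5 (0.869) and Glis2 (0.868). Those of Fbn2 were Mxra8 (0.891), Cbx6 (0.889) and Ptpn14 (0.883). Those of Fbln1 were Mmp2, the gelatinase (0.884), Dkk3 (0.859) and Prr15l (0.852). Lox had Ifi209, an interferon-activated gene (0.879), Ddx60, a helicase of antiviral defence (0.839), and Phf11d (0.839), and Fbn1 had Trim12a (0.842), Col1a1 (0.839) and 9930111J21Rik1 (0.834). Eln had Ildr2 (0.861), Myo18b (0.860) and Arhgef10 (0.808), Fbln5 had Pard6g (0.814), the laminin chain Lamb2 (0.805) and Tvp23a (0.792), and Fbln2 had Castor2 (0.799), Col8a2 (0.780) and Mamdc4 (0.772). No other member of the 10 was among these nearest genes.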

How the data were processed

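RNA of 20 livers was measured by RNA sequencing, with 2 lanes per mouse in the labels and 1 column per mouse in the tables. The replicate was therefore the mouse, n = 10 in each group, and the labels number the animals separately. Per the labels' protocols the libraries came from a stranded total RNA kit with ribosomal RNA removal, whereas the molecule field says polyA RNA. The build was GRCm39, per the submitters' processing notes. For aligner, counter and strand setting, the sources used here name nothing. Raw counts per gene, as deposited, entered every main test. A second table deposited by the authors holds FPKM rounded to whole numbers, treated here as a score: 43.3% of its values are 0, as are 23.4% of those with a count above 0.

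Of 21500 gene identifiers 21457 matched a mouse gene name table and 43 did not; no column was left unmapped. In all 90 within-group pairs the mice differed beyond sampling noise (chi-square over its degrees of freedom, 6.30 to 32.2). Per mouse, the members had 165 to 4234 counts, so counting error at the median count was 1.77% (Fbn1) to 6.06% (Mfap4), below the spread between mice of 6.17% to 21.1%. The margin was narrow for Fbln2, at 5.06% beside a spread of 7.41% in the CDAA-HFD mice and 6.17% in the BLT1i mice. Counting error is thus a large part of its variation. Read duplicates cannot be judged from counts.

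Counts were filtered with filterByExpr, scaled by TMM and given to edgeR 4.0.16 in R 4.3.3 (robust quasi-likelihood F-test, two-sided), with Benjamini-Hochberg adjustment over all 13993 genes and a threshold of 0.05. Levels relative to Col1a1 were tested with limma 3.58.1 on log2 CPM (prior count 2). Correlations used scipy 1.17.1 and numpy 2.4.6. The tests were tried on simulated data. Alternatives were other scalings and filters, DESeq2 1.42.0, limma-voom, rounded FPKM, other thresholds, an immediate early covariate and each mouse left out.

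The members, lists and tests were chosen with earlier results of these data known. Named were all members, 3 collagens, the 3 nearest genes of each member and, per list, the genes that passed or the 2 with the lowest p; further list genes were named after their values were seen. The result of 1 list is not reported here. RefSeq windows of GRCm38.p6 were used for Fbn1, Fbln1, Fbln2, Fbln5 and Efemp2.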

Additional observations from a re-analysis of the deposited data

Results flagged for a closer look

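Mfap4 in mouse 34 of the CDAA-HFD group was at 19.2 CPM, with the next mouse of that group at 13.6, so that the gap was 0.576 of the group's whole range, above the critical value of 0.466 for 10 mice. This was 1 of 20 groups of values examined, and chance flags about 1 in 20. Mouse 34 was also the highest CDAA-HFD mouse for Efemp2, Fbln2, Fbn1, Lox and Loxl1, without standing apart in the same way.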

How the results depend on the processing

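The number of members lower with BLT1i was 3. It was 0 at a threshold of 0.01, 0 with the immediate early genes as a covariate, and 1 to 3 with each mouse left out in turn; it was 1 without mouse 32, 34, 40, 72, 73 or 79. It was 2 without a filter and on the rounded FPKM, 4 at a threshold of 0.1, and 3 with the other scalings, the filter of 1 CPM in 10 mice, DESeq2 and limma-voom, which called Loxl1 in place of Lox. Among all 13993 genes the number lower moved too, from 277 in the main fit to 48 at a threshold of 0.01 and 540 at 0.1. It was 17 with the immediate early covariate, 420 with DESeq2, 366 with limma-voom and 540 with library totals alone. With 1 mouse left out it ran from 168 (mouse 79) to 342 (mouse 75). The cause of these shifts was not tested, apart from the threshold. No member was higher in any of these fits. The number changed relative to Col1a1 was 1 at a threshold of 0.1 and 0 to 1 with each mouse left out. The sign of the Efemp2 change turned positive in limma-voom (0.0018) and with the immediate early covariate (0.033), and it ran from -0.022 to 0.020 with each mouse left out; it was near 0 throughout. The 24 pairs with an r of at least 0.5 became 33 with library totals alone, 23 by Spearman's rho, 21 with Col1a1 regressed out, 25 with the immediate early genes regressed out, and 18 to 28 with each mouse left out. No paired analysis was possible because the groups share no mouse numbers. Counting error is widest for Mfap4, whose lowest count in a mouse was 165, and rounding of FPKM is coarsest for Fbln2, at 2 to 4.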
